A study of Mus musculus with 6 samples.

Results

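Glycolysis, the pentose phosphate pathway and the response to low oxygen were followed through 36 genes in cultured mouse bone marrow-derived macrophages with and without the retinoid X receptors alpha and beta. The genes were taken by symbol from a table of raw counts for 45193 Ensembl genes, and each of the 36 had its own entry there. They cover the 3 hexokinases, the enzymes of upper and lower glycolysis, 3 pyruvate dehydrogenase kinases, 4 pentose phosphate enzymes, the hypoxia-inducible factor gene Hif1a with genes that control its protein, and 10 genes known to respond to hypoxia. Together they took between 1.08% and 1.17% of the reads of each library.

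Retinoid X receptors are nuclear receptors that pair with other nuclear receptors, such as the liver X receptors and the PPARs, to control transcription. The wild-type (WT) mice were C57BL/6J. The knockout (RXRKO) cells carried loxP-flanked Rxra alleles with LysMCre and were RXRb-/-, on a C57BL/6J background. LysMCre expresses Cre recombinase from the lysozyme gene Lyz2 in myeloid cells, and no Cre is described for the WT cells. Marrow of both genotypes was cultured for 6 days with 20% fetal bovine serum and 30% L929-conditioned medium, which supplies CSF-1, the growth factor of macrophages. Before harvest the cells stood in serum-free medium and were given DMSO, a solvent, for 3 hours. The labels describe no activation and no low oxygen. Each genotype had 3 libraries, which the labels call biological replicates without naming animals. The p-values therefore measure the spread between these libraries, which may be partly technical.

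Glycolysis breaks glucose down to pyruvate in the cytosol, and lactate dehydrogenase turns pyruvate into lactate when it does not enter mitochondria. The pentose phosphate pathway branches off after the hexokinase step and yields NADPH and ribose phosphate. Most glycolytic enzyme genes are known targets of hypoxia-inducible factor (HIF), whose alpha subunit is marked for destruction by oxygen-dependent prolyl hydroxylases and the VHL ubiquitin ligase, and in macrophages inflammatory activation is known to raise glycolysis through the same factor.

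Library totals ran from 7880320 to 14957253 counts in WT and from 17250051 to 25091019 counts in RXRKO, so depth and genotype cannot be told apart. Rxrb fell from 64.74, 66.91 and 68.44 CPM (read counts brought to one library size with TMM factors) in WT replicates 1, 2 and 3 to 8.143, 7.978 and 11.68 CPM in RXRKO. Lyz2 fell from a WT mean of 15260 CPM to 28.4 CPM, and Rxra stood at 104 and 109 CPM, where whole-gene counts do not test the removal of a loxP-flanked part. Effects of the lost receptors, of Cre and of lost Lyz2 cannot be told apart. Summed levels of 8 macrophage markers, all of them tested, were 6890 to 7910 CPM in WT and 7610 to 8880 CPM in RXRKO. Of these 8, Cd14 (log2 fold change 1.08), Itgam (0.65) and Csf1r (0.40) rose and Mrc1 (-0.46) and Fcgr1 (-0.37) fell. Those of 10 neutrophil markers were 1090 to 1240 CPM and 994 to 1110 CPM, with 4 of the 10 called as lower (Ngp, Mpo, Elane and Prtn3). The other 6 did not pass. Their log2 fold changes were positive for Retnlg (0.82), Ltf (0.18) and Ly6g (0.18) and negative for S100a8 (-0.08), S100a9 (-0.25) and Camp (-0.05). Dendritic, lymphocyte, erythroid and mast cell lists each summed to at most 2.28 CPM in any library, and stromal and endothelial lists to at most 9.51 CPM. The endothelial sums were 3.46 to 4.57 CPM in WT and 6.28 to 7.28 CPM in RXRKO. In that list Kdr rose (log2 fold change 2.22) and Pecam1 fell (-1.59). All 6 proliferation genes fell, from sums of 846 to 882 CPM to sums of 484 to 541 CPM. Xist, the X-inactivation transcript of female cells, was at 0 reads throughout WT, while RXRKO replicates 1, 2 and 3 held 3590, 6716 and 4339 reads. The Y-linked gene Ddx3y stood at 101.2 to 112.3 CPM in WT and at 49.73 to 55.41 CPM in RXRKO. RNA of both sexes was thus present in the RXRKO libraries, while Xist was not detected in the WT libraries, so the sex of the donor mice is confounded with genotype. Both sex-linked genes were chosen after their values were seen. The part of these differences in the results below was not tested. In bulk RNA, fewer cells of a type and less RNA per cell cannot be told apart.

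In all, 6 of the 35 tested genes rose in RXRKO (Hk1, Hk2, Hk3, Pfkp, Ndrg1 and P4ha2) and 5 fell (Tpi1, Gapdh, Ldha, Pdk3 and Mif), while 24 did not pass. Where 3 values are given for a genotype, they stand in the order of replicates 1, 2 and 3. A gene was called at an adjusted p below 0.05 in edgeR's quasi-likelihood F test, with Benjamini-Hochberg adjustment over 12011 tested genes. Of all tested genes 19.4% were called, 9.77% as higher and 9.61% as lower, while 31.4% of the 35 genes were called, 17.1% as higher and 14.3% as lower. The difference of these shares was not tested. The median log2 change of RXRKO over WT was -0.0128 over the 35 genes and -0.0048 over all tested genes. All 3 RXRKO values lay outside the WT range in 16 of the 35 (45.7%), with 7 higher and 9 lower, against 36.9% of all tested genes, 19% higher and 17.9% lower. Adm, the gene of the peptide adrenomedullin, was the untested member, with 0 reads throughout WT and 1 read in all of RXRKO, in replicate 2.

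**Figure D1:**
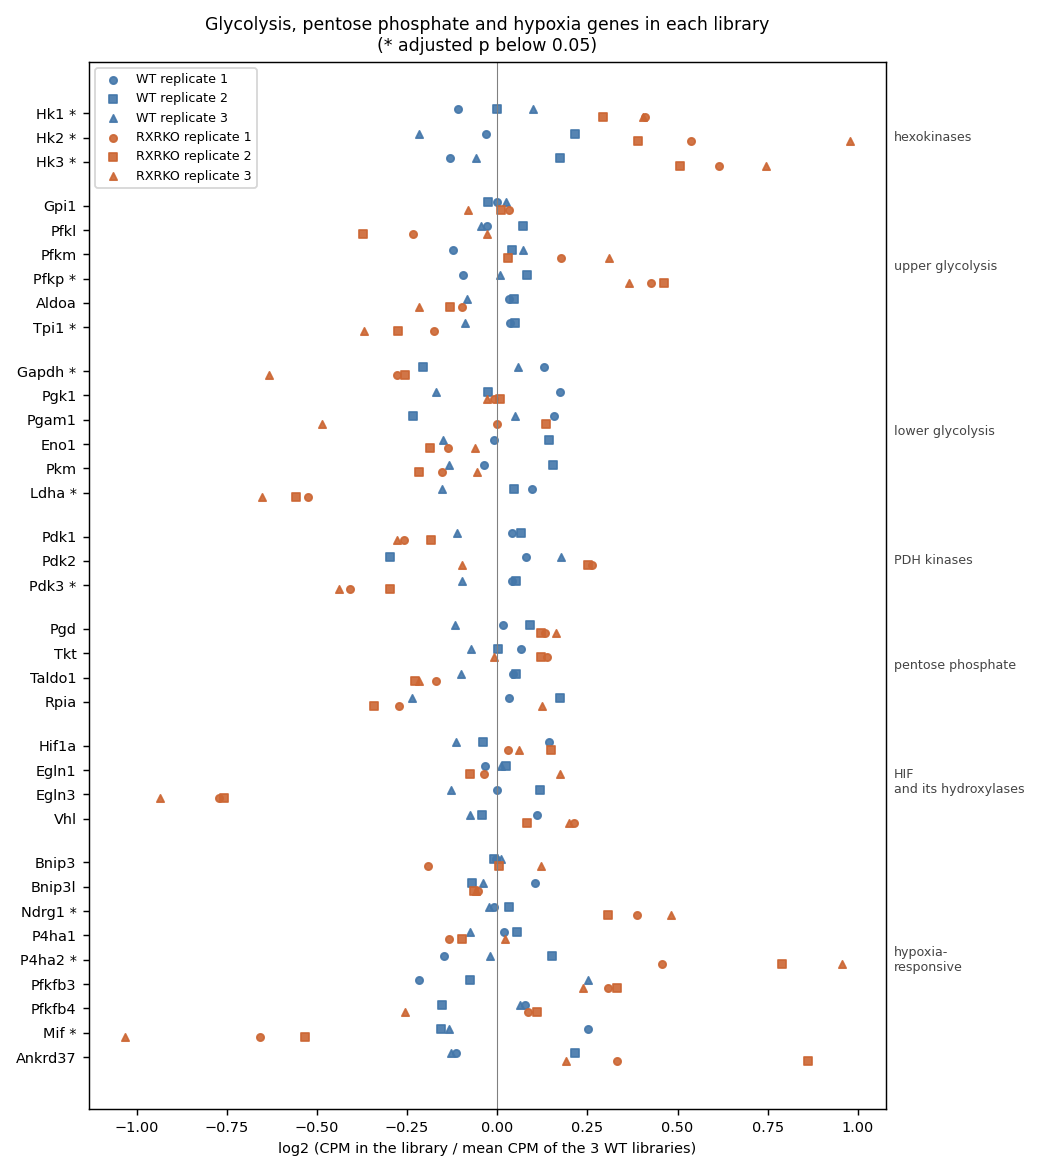
Level of each of the 35 tested genes in each library, as the log2 of its CPM over the mean CPM of the 3 WT libraries, grouped by role. Points are single libraries, with replicates 1, 2 and 3 shown as circles, squares and triangles. The 3 hexokinases lie to the right in all RXRKO libraries, while Ldha, Tpi1 and Mif lie to the left.

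The first step of glycolysis, the phosphorylation of glucose, was higher at the transcript level for all 3 hexokinases measured. Hk3 (ENSMUSG00000025877, chromosome 13, 55005985 to 55021385 in GRCm38), which encodes a hexokinase known for its expression in myeloid cells, stood at 372.9, 460.7 and 391.8 CPM in WT against 625.6, 579.9 and 684.8 CPM in RXRKO. Its lowest RXRKO library lay well above the highest WT library. The log2 fold change was 0.63 (SE 0.097, edgeR adjusted p = 6.58e-04), or 1.54-fold. Hk2 (ENSMUSG00000000628, chromosome 6, 82725025 to 82774454), the inducible form that HIF is known to activate, measured 37.66, 44.74 and 33.11 CPM in WT and 55.84, 50.41 and 75.78 CPM in RXRKO. All RXRKO values were above the WT values, but RXRKO replicate 3 was far above the others and RXRKO replicate 2 lay close to WT replicate 2. Its log2 fold change was 0.66 (SE 0.153, edgeR adjusted p = 0.00944). Hk1 (ENSMUSG00000037012, chromosome 10, 62268855 to 62379908), the broadly expressed form, measured 105.7, 113.9 and 122.1 CPM in WT and 151.2, 139.6 and 150.7 CPM in RXRKO. The groups did not overlap, and the log2 change of 0.37 (SE 0.083, edgeR adjusted p = 0.00808) was the smallest of the 3. The Hk1 call was lost without WT replicate 1 (edgeR adjusted p = 0.0528) or RXRKO replicate 1 (0.0525), and the Hk2 call without WT replicate 1 (0.0689).

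The order of the hexokinases did not differ between the genotypes. Per kilobase of transcript, the means in WT and RXRKO were 126.9 and 195.7 CPM for Hk3, 26.62 and 34.41 CPM for Hk1, and 6.983 and 11.01 CPM for Hk2. The log2 ratio of Hk3 to Hk1 per kilobase was 2.229, 2.427 and 2.092 in WT against 2.459, 2.465 and 2.594 in RXRKO. It was higher in each RXRKO library, although the gap between the nearest libraries of the genotypes was small. The Hk2 to Hk1 ratio overlapped between genotypes, with means of -1.94 ± 0.277 in WT and -1.67 ± 0.267 in RXRKO (SD, n = 3).

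The promoters of 2 called genes from each of 3 groups (hexokinases, lower glycolysis and hypoxia-responsive genes) are shown, so that the letters bound by HIF can be seen in place. The core of the hypoxia response element is ACGTG or GCGTG, and its reverse complements are CACGT and CACGC. These letters are in capitals in the 250 bases upstream of the start given by RefSeq (GRCm38.p6), printed 5′ to 3′ on the strand of the gene. The E-box CACGTG holds ACGTG on both strands, so the same letters can also fit other factors. Hk2 lies on the minus strand of chromosome 6, with its window at chr6:82774455-82774704, and Hk3 on the minus strand of chromosome 13, at chr13:55021386-55021635. The Hk2 window held 2 matches and the Hk3 window 1.
Hk2: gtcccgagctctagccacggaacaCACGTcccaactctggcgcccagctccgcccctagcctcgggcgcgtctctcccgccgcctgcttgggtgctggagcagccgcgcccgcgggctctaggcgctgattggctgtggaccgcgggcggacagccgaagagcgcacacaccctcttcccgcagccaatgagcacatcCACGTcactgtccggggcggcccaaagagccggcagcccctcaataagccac
Hk3: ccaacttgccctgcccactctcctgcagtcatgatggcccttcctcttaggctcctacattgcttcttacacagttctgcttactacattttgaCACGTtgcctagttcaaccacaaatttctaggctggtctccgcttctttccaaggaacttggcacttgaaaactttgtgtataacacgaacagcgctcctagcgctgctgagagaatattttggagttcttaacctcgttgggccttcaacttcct

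In upper glycolysis, the part that invests ATP and splits the sugar, 1 of 6 genes rose, 1 fell and 4 did not pass. Pfkp (ENSMUSG00000021196, chromosome 13, 6579768 to 6648777 in GRCm38), the platelet-type phosphofructokinase of the committed step, measured 154.1, 174.2 and 165.5 CPM in WT against 221.1, 226.9 and 211.9 CPM in RXRKO. The genotypes were well apart, with a log2 change of 0.42 (SE 0.079, edgeR adjusted p = 0.00269). Pfkp shares 748 exon bases with Pitrm1 on the opposite strand, and since use of strand is not given in the sources used here, its level is uncertain. Tpi1 (ENSMUSG00000023456, chromosome 6, 124810586 to 124814296), triosephosphate isomerase, measured 418.2, 422.4 and 383.3 CPM in WT and 361, 337.3 and 315.7 CPM in RXRKO. All RXRKO values were lower, with a log2 change of -0.27 (SE 0.082, edgeR adjusted p = 0.0353). The Tpi1 call held without WT replicate 3 (edgeR adjusted p = 0.0167) and was lost in each of the other 5 fits that left out a library (0.0677 to 0.118).

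The other upper enzymes showed smaller differences. Aldoa, the aldolase of muscle and many other cells, did not pass (log2 fold change -0.15, SE 0.078, edgeR adjusted p = 0.212), though its RXRKO libraries (1490 to 1619 CPM) all lay below WT (1634 to 1790 CPM). Pfkl, the liver-type phosphofructokinase (-0.20, edgeR adjusted p = 0.184), and Pfkm, the muscle type (0.17, edgeR adjusted p = 0.333), did not pass and overlapped. Gpi1, the isomerase between the hexokinase and phosphofructokinase steps, was nearly level, with means of 409.8 and 406.5 CPM (-0.01, SE 0.075, edgeR adjusted p = 0.934).

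Ratios between the phosphofructokinase genes were compared as a description, with no test. The log2 ratio of Pfkp to Pfkl per kilobase was 1.170, 1.249 and 1.291 in WT against 1.898, 2.073 and 1.629 in RXRKO. Pfkp transcripts were on average 2.36 times those of Pfkl in WT and 3.65 times in RXRKO, and the RXRKO ratios all lay above WT. The Pfkm to Pfkl ratio also lay higher, from -1.256 to -1.043 in WT and from -0.827 to -0.751 in RXRKO. Pfkp and Pfkl transcripts are of like length (4145 and 3730 bases), and the uncertainty of Pfkp from Pitrm1 holds for its ratio too.

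In lower glycolysis, from glyceraldehyde phosphate to lactate, 2 of 6 genes fell and 4 did not pass. The log2 fold change was negative for all 6. Their transcripts are 1420 to 2432 bases long, and the median over all tested genes in the bins of such length was negative too (-0.15 to -0.06). Ldha (ENSMUSG00000063229, chromosome 7, 46841475 to 46855627 in GRCm38), the lactate dehydrogenase subunit favoured in cells that make lactate, measured 746.9, 721.6 and 628.6 CPM in WT against 486.2, 475 and 444.8 CPM in RXRKO. RXRKO lay far below WT, and the spread within it was small. The log2 fold change was -0.58 (SE 0.086, edgeR adjusted p = 5.02e-04), 1.49-fold lower. Gapdh (ENSMUSG00000057666, chromosome 6, 125161715 to 125166467), the dehydrogenase that opens this stretch and a common reference gene, measured 566.8, 449.6 and 539.2 CPM in WT and 428, 434.5 and 334.3 CPM in RXRKO. The gap between WT replicate 2 and RXRKO replicate 2 was narrow, and the log2 fold change was -0.38 (SE 0.114, edgeR adjusted p = 0.0341). Its call was lost without WT replicate 1 (edgeR adjusted p = 0.158) or 3 (0.0717) or RXRKO replicate 1 (0.0604) or 3 (0.0928). Gapdh has 72 near-identical copies in the transcriptome, with 2.85% of the reads that it holds itself, and reads that fit several copies may have been left out or placed elsewhere, so its level is uncertain. The 10 other members with copies had at most 0.517% of their reads in them, but reads left out would not show in these shares. The levels of members with long copies are therefore uncertain too. Among them are Pgam1 (100% identity over 765 bases), Pgk1 (100% over 1255 bases) and Eno1 (99.455% over 1652 bases).

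Ldha and Gapdh were the genes of lower glycolysis with the largest changes. The Ldha window with the most matches lies on the plus strand at chr7:46845554-46845803 and held 5 matches, from a pair of CACGTG palindromes and a single CACGT. The Gapdh window lies on the minus strand at chr6:125165774-125166023 and held 2 matches.
Ldha: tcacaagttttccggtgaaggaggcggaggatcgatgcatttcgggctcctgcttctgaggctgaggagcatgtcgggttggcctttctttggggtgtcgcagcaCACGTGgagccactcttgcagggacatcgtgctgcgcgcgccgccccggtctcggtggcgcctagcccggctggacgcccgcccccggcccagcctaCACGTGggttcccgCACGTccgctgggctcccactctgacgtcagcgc
Gapdh: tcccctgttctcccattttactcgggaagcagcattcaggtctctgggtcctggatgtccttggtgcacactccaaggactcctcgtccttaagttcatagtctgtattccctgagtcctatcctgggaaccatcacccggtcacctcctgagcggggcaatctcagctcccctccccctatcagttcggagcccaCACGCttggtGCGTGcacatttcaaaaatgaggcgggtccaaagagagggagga

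Pkm (ENSMUSG00000032294, chromosome 9, 59656368 to 59679375 in GRCm38), the pyruvate kinase gene and the most abundant of the 36, measured 3138, 3587 and 2934 CPM in WT against 2895, 2769 and 3099 CPM in RXRKO. The groups overlapped and the gene did not pass (log2 fold change -0.14, SE 0.09, edgeR adjusted p = 0.308). Eno1, the enolase (-0.13, edgeR adjusted p = 0.35), Pgam1, the phosphoglycerate mutase (-0.10, edgeR adjusted p = 0.705), and Pgk1, the phosphoglycerate kinase (-0.01, edgeR adjusted p = 0.959), did not pass and overlapped as well. When transcript length and GC content were offset, Pgk1 turned to 0.11 and Pgam1 stood at -1e-04, both again short of the threshold. Along the 15 genes from Hk1 to Ldha, 4 rose and 3 fell. The risers stood at the glucose and fructose phosphorylation steps and the fallers from the triose steps on. Of the 15, 46.7% were called, against 19.4% of all tested genes. These risers also had longer transcripts (3219 to 5513 bases) than these fallers (1420 to 1815 bases). With the same offsets, Hk2, Tpi1 and Gapdh lost the call, and Pfkl, at the fructose step, was called as lower (-0.33, edgeR adjusted p = 0.0324).

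**Figure D2:**
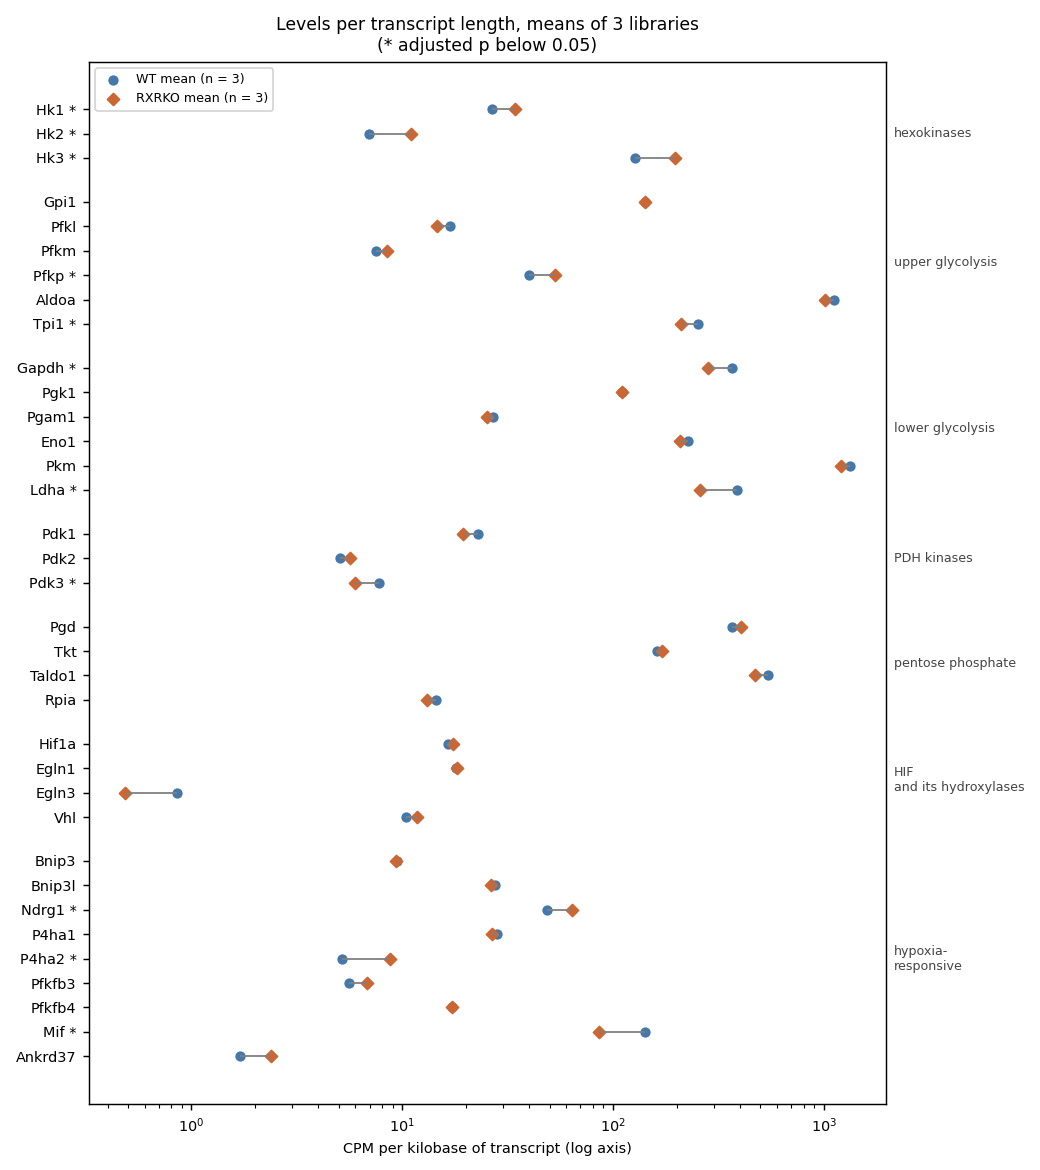
Mean level of each tested gene per kilobase of its transcript in CPM, on a log axis, for WT (circles, n = 3 libraries) and RXRKO (diamonds, n = 3 libraries), grouped by role. Pkm and Aldoa lie above 1000 CPM per kilobase in both genotypes, and Egln3 is the lowest of the tested genes.

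Per kilobase of transcript, the order from the top was Pkm (1324 CPM in WT, 1201 CPM in RXRKO), Aldoa (1118 and 1009 CPM) and Taldo1 (541.4 and 469.8 CPM) in both genotypes. Ldha ranked 4 in WT with 385.2 CPM per kilobase and 6 in RXRKO with 258.2 CPM, below Pgd and Gapdh. Hk3 moved from rank 12 to rank 9, past Gpi1, Mif and Tkt. These levels divide by the length of the longest annotated protein-coding transcript, so an isoform that is shorter in these cells would be underestimated.

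Pyruvate dehydrogenase kinases switch off the entry of pyruvate into the mitochondrial citric acid cycle, and 1 of the 3 fell. Pdk3 (ENSMUSG00000035232, chromosome X, 93764607 to 93832201 in GRCm38) measured 16.81, 16.96 and 15.28 CPM in WT against 12.33, 13.3 and 12.06 CPM in RXRKO. The groups were apart with little spread (log2 fold change -0.37, SE 0.119, edgeR adjusted p = 0.0447), but the call stood close to the threshold and was lost in 14 of 20 alternative fits, DESeq2 and limma-voom among them. Of the 6 fits that left out a library, it was called without WT replicate 3 (edgeR adjusted p = 0.0394) and lost in the other 5 (0.0783 to 0.148). Pdk3 lies on the X chromosome, as does Pgk1, which was nearly level (-0.01), and the genotypes differ in Xist as given above. Pdk1, a classical HIF target, also had lower values in all RXRKO libraries (97.57 to 104.2 CPM against 109.5 to 124 CPM) without passing (-0.24, SE 0.083, edgeR adjusted p = 0.061). It was called with length and GC offsets (-0.33, edgeR adjusted p = 0.0138) and without WT replicate 3 (edgeR adjusted p = 0.0216). Pdk2 did not pass (0.13, edgeR adjusted p = 0.604).

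None of the 4 pentose phosphate genes was called. With 19.4% of all tested genes called, 4 genes are too few to tell this from the general share. Pgd (ENSMUSG00000028961, chromosome 4, 149149991 to 149166771 in GRCm38), the dehydrogenase of the oxidative branch that yields NADPH, measured 825.9, 869.8 and 752.8 CPM in WT against 894.4, 888.5 and 913 CPM in RXRKO. All RXRKO libraries lay above WT, by a narrow margin over WT replicate 2, and the gene did not pass (log2 fold change 0.14, SE 0.079, edgeR adjusted p = 0.249). Taldo1, transaldolase of the non-oxidative branch, had the opposite sign, from 687.9 to 763.9 CPM in WT and from 630 to 655.7 CPM in RXRKO (-0.20, SE 0.077, edgeR adjusted p = 0.0836). It passed in DESeq2 and, in edgeR, without WT replicate 3 (adjusted p = 0.0256). Tkt, transketolase, and Rpia, the ribose phosphate isomerase, overlapped and did not pass (0.08 and -0.14, edgeR adjusted p = 0.499 and 0.555).

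Hif1a and the genes that control its protein, 4 in all, held no call, where 19.4% of all tested genes were called. So few genes do not tell this from the general share. Hif1a (ENSMUSG00000021109, chromosome 12, 73901375 to 73947530 in GRCm38) measured 85.91, 75.65 and 71.9 CPM in WT against 79.39, 86.21 and 81.11 CPM in RXRKO. The groups overlapped (log2 fold change 0.08, SE 0.091, edgeR adjusted p = 0.579). HIF activity is set largely at the protein, which was not measured. Egln1, the main prolyl hydroxylase (0.02, edgeR adjusted p = 0.892), and Vhl, the recognition subunit of the ubiquitin ligase (0.17, edgeR adjusted p = 0.279), did not pass either.

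Egln3 (ENSMUSG00000035105, chromosome 12, 54178981 to 54203860 in GRCm38), a prolyl hydroxylase whose transcript is itself induced by HIF, had the most negative log2 change of the 35 genes but rests on few reads. The WT replicates 1, 2 and 3 held 22, 19 and 32 reads, and the RXRKO replicates 1, 2 and 3 held 23, 34 and 22. Scaled to depth these were 2.283, 2.478 and 2.09 CPM and 1.338, 1.35 and 1.195 CPM, so every RXRKO value was lower. The log2 change of -0.80 (SE 0.28) missed the threshold (edgeR adjusted p = 0.0647), as it did in all 20 alternative fits, where the adjusted p ran from 0.0532 to 0.189.

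Among the genes known to respond to hypoxia, 2 rose and 1 fell of the 9 tested, and 6 missed the threshold. P4ha2 (ENSMUSG00000018906, chromosome 11, 54100095 to 54131665 in GRCm38), a subunit of the collagen prolyl hydroxylase, measured 10.58, 13.04 and 11.56 CPM in WT against 16.11, 20.28 and 22.76 CPM in RXRKO. This was the largest called rise of the 36, with no overlap and a log2 change of 0.76 (SE 0.149, edgeR adjusted p = 0.00335), or 1.69-fold. Ndrg1 (ENSMUSG00000005125, chromosome 15, 66929318 to 66969640), a stress- and hypoxia-induced gene, measured 140.2, 144.4 and 138.8 CPM in WT and 184.4, 174.4 and 196.9 CPM in RXRKO. WT values were tightly grouped and all RXRKO values were above them (log2 fold change 0.39, SE 0.079, edgeR adjusted p = 0.00383). Mif (ENSMUSG00000033307, chromosome 10, 75859353 to 75860240), the gene of macrophage migration inhibitory factor, measured 91.72, 69.13 and 70.27 CPM in WT and 48.8, 53.19 and 37.7 CPM in RXRKO. It was the largest called fall, at a log2 change of -0.72 (SE 0.138, edgeR adjusted p = 0.00279), 1.65-fold lower, with WT replicate 1 high and RXRKO replicate 3 low.

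P4ha2 and Mif had the highest and lowest log2 fold changes of the called members, and their promoters differed in the HIF letters upstream. Ldha, which also fell, held 5 matches in the window shown above, so this difference does not follow direction. The P4ha2 window lies on the plus strand at chr11:54100674-54100923 and held 3 matches. The Mif window lies on the minus strand at chr10:75860278-75860527 and held 0 matches upstream of the start and 1 in the 50 bases after it.
P4ha2: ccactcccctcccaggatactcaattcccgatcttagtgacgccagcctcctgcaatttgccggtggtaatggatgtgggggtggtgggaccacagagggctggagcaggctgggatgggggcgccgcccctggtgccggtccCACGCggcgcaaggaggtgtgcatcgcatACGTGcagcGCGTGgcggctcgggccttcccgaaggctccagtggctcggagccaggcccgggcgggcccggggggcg
Mif: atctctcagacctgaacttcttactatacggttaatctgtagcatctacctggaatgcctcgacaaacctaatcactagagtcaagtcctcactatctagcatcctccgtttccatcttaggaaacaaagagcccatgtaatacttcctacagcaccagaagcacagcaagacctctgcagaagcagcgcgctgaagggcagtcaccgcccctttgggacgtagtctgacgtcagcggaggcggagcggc

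The remaining hypoxia genes did not pass. Pfkfb3, a bifunctional enzyme that makes an activator of phosphofructokinase, had a log2 change of 0.28 (SE 0.122, edgeR adjusted p = 0.129). It passed without WT replicate 3 (edgeR adjusted p = 0.0177). Its relative Pfkfb4 was nearly level (-0.01, edgeR adjusted p = 0.952). The mitophagy receptors Bnip3 (-0.01, edgeR adjusted p = 0.949) and Bnip3l (-0.06, edgeR adjusted p = 0.671) and the collagen hydroxylase subunit P4ha1 (-0.07, edgeR adjusted p = 0.607) overlapped between genotypes. Ankrd37 had 14 to 22 reads in each WT library and 33 to 72 in RXRKO, and its log2 change of 0.53 did not pass (SE 0.302, edgeR adjusted p = 0.248). It shares 349 exon bases with Lrp2bp and 57 with Ufsp2 on the opposite strand, so its counts are uncertain.

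**Figure D3:**
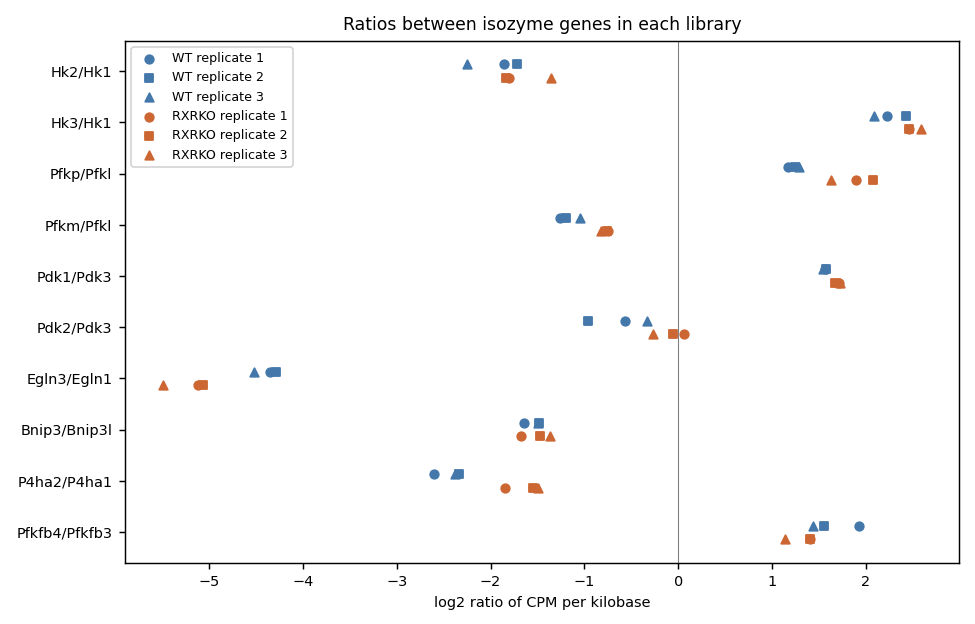
Log2 ratio of CPM per kilobase between pairs of related genes in each library, with WT in blue and RXRKO in orange and replicates 1, 2 and 3 as circles, squares and triangles. The RXRKO points of P4ha2/P4ha1 and Pfkp/Pfkl lie to the right of all WT points, and those of Egln3/Egln1 to the left.

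Ratios between related genes that do similar work were also compared. The log2 ratio of P4ha2 to P4ha1 per kilobase was -2.600, -2.336 and -2.379 in WT against -1.842, -1.544 and -1.498 in RXRKO. P4ha1 remained the more abundant form, but P4ha2 went from 0.184 to 0.324 times its level. The Egln3 to Egln1 ratio had the opposite sign, from -4.39 ± 0.121 in WT to -5.23 ± 0.233 in RXRKO (SD, n = 3), with no overlap. Of the 10 pairs compared, 8 did not overlap between the genotypes, and Hk2/Hk1 and Bnip3/Bnip3l did. No share for other gene pairs was computed, and 36.9% of single tested genes did not overlap either. Both genes missed the threshold in Pfkm/Pfkl, Egln3/Egln1 and Pfkfb4/Pfkfb3. These ratios are descriptions with no test, and pairs of unlike transcript length share the trend described next.

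Fold changes in these libraries moved with transcript length. Over 12003 tested genes with a known length, Spearman's rho between the log2 fold change and the length was 0.346, given as a description because genes share libraries. The median log2 fold change went from -0.21 in the shortest of 10 equal bins of genes to 0.19 in the longest. Over the 35 tested members rho was 0.434. The 6 risers had transcripts of 2263 to 5513 bases (median 3682) and the 5 fallers transcripts of 544 to 2115 bases (median 1607), so the called members did not overlap in length. GC content showed little relation (rho 0.041 over all genes). With no filter on low counts the rho of length over all genes was -0.001, and with DESeq2 it was 0.123. These 2 fits were not limited to the genes that passed the filter. The no-filter fit tested 27301 genes, and DESeq2 was run on every gene with reads. Their rho may therefore rest on other genes than the 0.346.

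**Figure D4:**
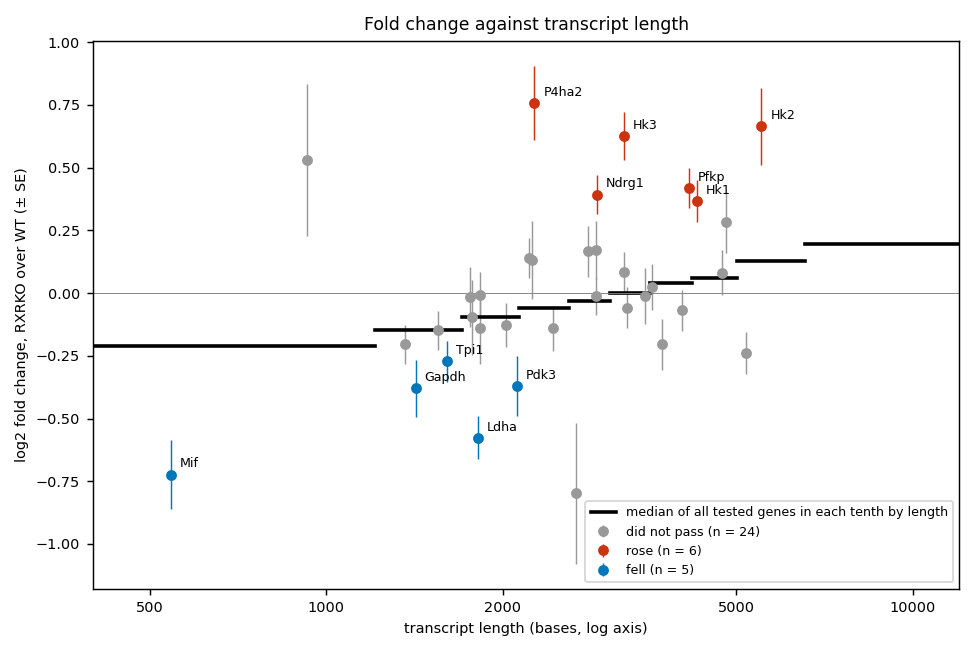
Log2 fold change of RXRKO over WT (± SE) against the length of the longest annotated protein-coding transcript in bases, on a log axis, for the 35 tested genes. Black bars give the median of all tested genes in each of 10 bins by length. The 6 risers lie to the right of the 5 fallers, and the median climbs from -0.21 to 0.19.

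Some libraries of the same genotype also differed along length. The difference of WT replicate 3 from WT replicate 1 had a rho of 0.307 with length, and that from WT replicate 2 a rho of 0.243, while replicate 2 against 1 gave 0.004. In RXRKO, rho was 0.195 for replicate 2 against 1, -0.051 for 3 against 1 and -0.146 for 3 against 2. The 9 pairs of 1 RXRKO and 1 WT library ranged from 0.095 to 0.390. Relative to the mean of all libraries, rho was -0.324, -0.313 and -0.016 in WT against 0.259, 0.365 and 0.143 in RXRKO. The part of length in each member's change was therefore examined with a fit that removes a smooth dependence on length and GC content in each library.

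**Figure D5:**
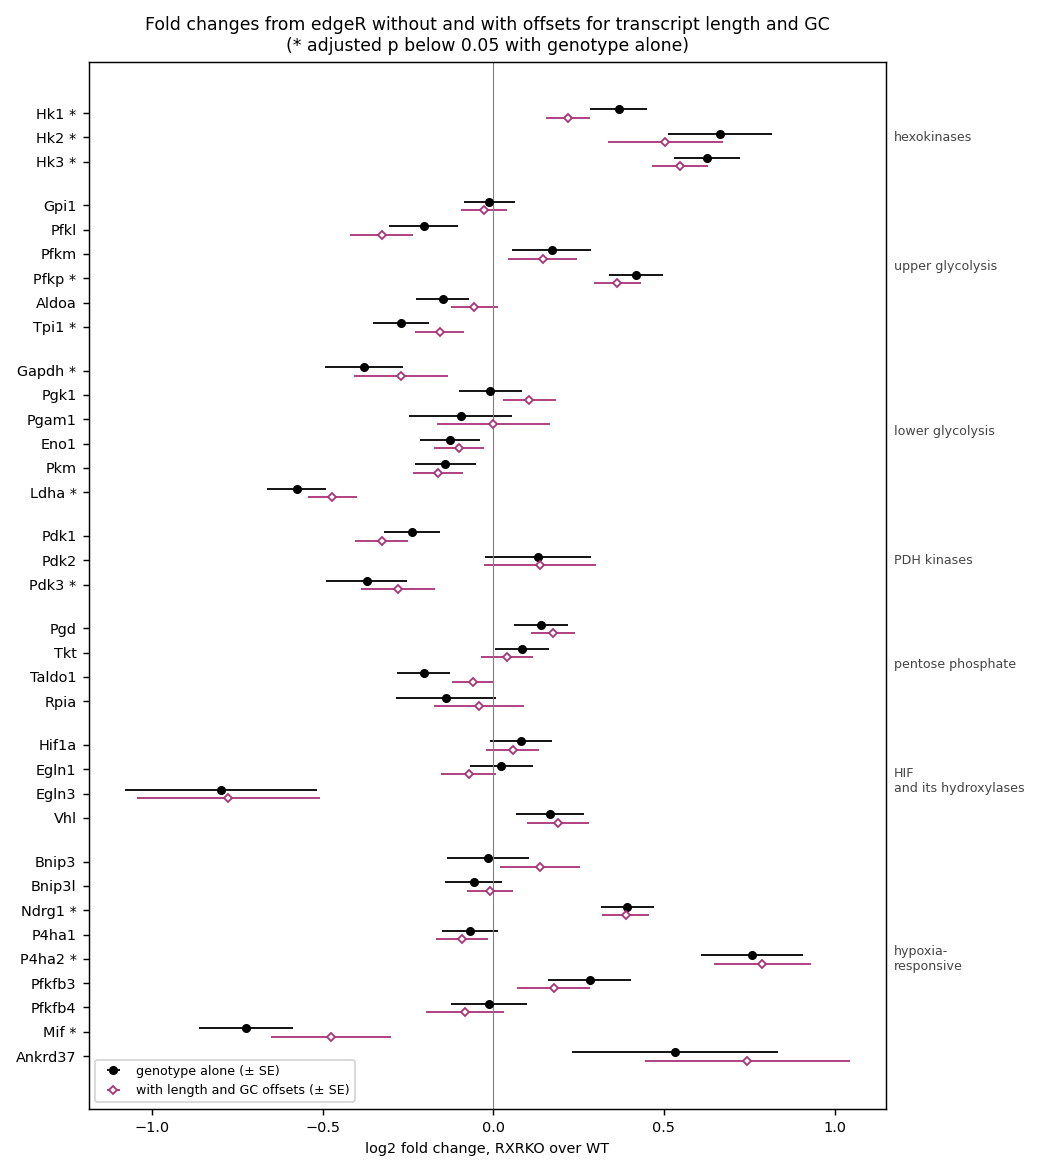
Log2 fold change of RXRKO over WT (± SE) for the 35 tested genes from edgeR with genotype alone (filled circles) and with length and GC offsets (open diamonds). Values of Hk3, Ldha, Ndrg1 and P4ha2 stay far from 0 in both fits, and those of Tpi1, Gapdh and Mif move toward 0.

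With these offsets 6 of the 11 calls were kept, namely Hk1 (0.22, edgeR adjusted p = 0.0392), Hk3 (0.55, 7.80e-04), Pfkp (0.36, 0.00393), Ldha (-0.47, 9.95e-04), Ndrg1 (0.39, 0.00234) and P4ha2 (0.79, 0.00299). The calls of Hk2 (0.50, edgeR adjusted p = 0.0727), Tpi1 (-0.16, 0.172), Gapdh (-0.27, 0.228), Pdk3 (-0.28, 0.106) and Mif (-0.48, 0.102) were lost, all with their sign unchanged. P4ha2, with a transcript of 2263 bases, is shorter than the other risers and its value was slightly larger with the offsets. Pfkl (-0.33, edgeR adjusted p = 0.0324) and Pdk1 (-0.33, edgeR adjusted p = 0.0138) were gained. An alternative chosen after seeing the data took length from all exons of a gene in place of its longest protein-coding transcript. There Hk2 (0.59, edgeR adjusted p = 0.0263) and Gapdh (-0.43, 0.0454) were called, and Hk1 (0.18, 0.0903) and Pfkp (0.21, 0.0641) were not. Hk3, Ldha, Ndrg1 and P4ha2 were called in every one of the 20 alternative fits.

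Promoter windows of 300 bases, 250 before and 50 after the RefSeq start, were found for 34 of the 36 genes (not for Bnip3l and Ndrg1). ACGTG or GCGTG on either strand occurred in at least 1 window of 31 of the 34 (91.2%), against 46.7% of 27025 genes with a window and 68% of the 9268 of these that were tested here. Risers held the letters in 5 of 5 genes, fallers in 4 of 5 and tested genes that did not pass in 21 of 23, so the letters did not separate the directions. Gpi1, Tpi1 and Vhl had no match in their windows. ACGTG alone was found in 21 of 34 genes (61.8%), against 29.7% of the tested genes. Genes with more windows have more chances of a match, and counted by window 38 of 48 (79.2%) held the letters against 43.8% of all windows. No share by window was computed for the tested genes alone.

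Other genes of these pathways were read from lists of 102 genes, of which 79 were tested. Calls were made for 14, with 5 higher and 9 lower, and 65 missed the threshold. These are 17.7% called, 6.33% as higher and 11.4% as lower, close to the 19.4% of all tested genes, with a median log2 change of -0.05. Among 24 tested genes of glucose uptake and other glycolytic steps, 3 rose and 1 fell. Slc2a6, a glucose transporter gene of the GLUT family, measured 5.395, 6.391 and 10.58 CPM in WT against 37.69, 32.71 and 35.26 CPM in RXRKO. Every RXRKO value was several times the WT values, at a log2 change of 2.18 (SE 0.188, edgeR adjusted p = 6.13e-06), the largest of the pathway genes tested. Slc2a6 lies on chromosome 2 at 27021363 to 27027998, 0.65 Mb from Rxra, a locus altered by breeding, so the effects of linked sequence and of the lost receptors on it cannot be told apart. Pfkfb2, a relative of Pfkfb3 (0.60, edgeR adjusted p = 0.0111), and Slc2a9, a urate and hexose transporter (0.40, edgeR adjusted p = 0.0196), also rose. Slc16a1, a lactate and pyruvate transporter, fell from 30.12 to 21.27 CPM (-0.49, edgeR adjusted p = 0.0206). The widely studied glucose transporter Slc2a1 did not pass (edgeR adjusted p = 0.302).

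Shares called were 9.09% for pyruvate entry into mitochondria, 12.5% for other pentose phosphate and ribose genes and 10% for other HIF pathway genes. Over all tested genes the share was 19.4%, and these lists are too short to tell their shares from it. Of 11 tested genes of pyruvate entry into mitochondria, 1 fell: Dld, the shared dihydrolipoamide dehydrogenase (-0.31, edgeR adjusted p = 0.0389). Of 8 other pentose phosphate and ribose genes, 1 fell: Prps1, the phosphoribosyl pyrophosphate synthetase that draws on ribose phosphate, which went from 21.99 to 15 CPM (-0.55, SE 0.12, edgeR adjusted p = 0.00673). Prps1 is X-linked. Of 10 other HIF pathway genes, 1 fell: Elob, a subunit of the VHL ligase (-0.36, edgeR adjusted p = 0.0401).

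Of 26 other hypoxia-responsive genes, 2 rose and 5 fell. These are 7.69% and 19.2%, against 9.77% and 9.61% of all tested genes, and the difference of these shares was not tested. The histone demethylase gene Kdm4b (0.43, edgeR adjusted p = 0.0162) and the nuclear receptor gene Rora (0.38, edgeR adjusted p = 0.0296) rose. Anln, which encodes the cytokinesis protein anillin and is listed in hypoxia signatures, fell from 70.64 to 46.14 CPM (-0.61, SE 0.107, edgeR adjusted p = 0.00147). It moved with the proliferation genes given above, and their part in it was not tested. Fam162a (-0.46, edgeR adjusted p = 0.012) and Hilpda, a lipid droplet protein gene (-0.72, edgeR adjusted p = 0.0249), fell as well. Slc2a6 and Anln were called in all 20 alternative fits and Prps1 in 19 of 20, and each of the other 9 named here lost its call when at least 1 library was left out. With length and GC offsets, Dld (-0.21, edgeR adjusted p = 0.0973), Elob (-0.10, 0.653), Kdm4b (0.23, 0.14), Rora (0.19, 0.28), Fam162a (-0.19, 0.251) and Hilpda (-0.51, 0.0924) lost the call, and the other 6 named here kept it. Over the 6 fits that left out a library, the highest edgeR adjusted p was 0.0612 for Pfkfb2, 0.0875 for Slc2a9, 0.118 for Slc16a1, 0.183 for Dld, 0.187 for Elob, 0.076 for Kdm4b, 0.0915 for Rora, 0.0612 for Fam162a and 0.124 for Hilpda. WT replicate 1 was the library left out in each of these except Rora, where it was RXRKO replicate 2.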

How the data were processed

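RNA with poly(A) tails, 100 ng per library, went into NEBNext Ultra II libraries, which were read single-end for 75 cycles (NextSeq), per the labels' protocols. TopHat2 2.0.7, DESeq and mm10 (GRCm38) are listed in the submitters' processing notes. How reads were counted, with which annotation and whether by strand, is not given in the sources used here. The authors deposited raw counts per Ensembl gene, and these were used for the results. The authors also deposited log2 values, which equal the log2 of each count times a constant for the library (0.617 to 2.04), with counts of 1 in RXRKO listed as 0, and these served in 1 alternative after adding 1 on the linear scale. Counts were tested in R 4.3.3 with edgeR 4.0.16 (TMM factors, filterByExpr with a minimum count of 10 and a minimum total of 15, robust quasi-likelihood F test, genotype alone), with Benjamini-Hochberg adjustment over 12011 genes. SE was taken from F and the log2 fold change. The script was tested on simulated data.

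Of 45193 gene identifiers, 45106 matched GENCODE M21, the source of positions, lengths and GC content. Length and GC content came from the longest protein-coding transcript of a gene, or from its longest transcript where none was protein-coding. Copies were found with BLAST+ 2.17.0 at 95% identity over 200 bases. Length and GC offsets came from a loess fit (span 0.3) in each library. Alternatives used other factors and filters, DESeq2 1.42.0, limma 3.58.1, thinning, summed copies, a replicate block and each library left out. The 36 genes, the other pathway genes and the marker lists were chosen with earlier results of these data known. Values in every library are given for called members and for Hif1a, Pkm and Pgd. Of each other list, up to 3 genes that rose and 3 that fell with the smallest adjusted p are named, and Slc2a1 was named after its value was seen.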

Additional observations from a re-analysis of the deposited data

How the results depend on the processing

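Of the 11 called genes, 4 (Hk3, Ldha, Ndrg1 and P4ha2) were called in all 20 alternative fits, 7 lost the call in at least 1, and none changed sign. Of the 24 that did not pass, 4 were called in at least 1 fit (Pfkl, Pdk1, Taldo1 and Pfkfb3) and 9 changed sign in at least 1. Leaving out 1 library gave 4 to 7 members called as higher, 2 to 6 as lower, 2 to 6 and 2 to 10 other pathway genes, and 667 to 1278 and 619 to 1329 of all genes, with fewest calls without WT replicate 1. The rho of length then ran from 0.29 to 0.367. It was -0.001 with no filter and 0.123 with DESeq2. With length and GC offsets or length offsets it was -0.006, with offsets and the block -0.004, and with exon-union length 0.105. Offsets remove the trend by construction. The no-filter and DESeq2 fits also took in genes below the filter, and the cause of their values was not tested. With length and GC offsets 3 members were called as lower, namely Ldha, which kept its call, and Pfkl and Pdk1, which gained theirs. With length offsets 2 were, Ldha and the gained Pdk1. Exon-union length gave 8 other pathway genes called as higher.

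Deviations of same-numbered libraries correlated at 0.053, -0.275 and -0.259, and those of the other pairs at -0.108 to 0.307. With 3 libraries per genotype, this does not tell whether same-numbered libraries were prepared together. With the replicate block, 709 genes were called as higher and 666 as lower, with 2 members as lower and 2 and 3 other pathway genes. The block with length and GC offsets gave 508 and 537 genes, 1 member as lower, and 2 and 1 other pathway genes. Depth limits Egln3, Ankrd37 and Adm, which had the fewest reads. With all libraries thinned to the smallest, 1082 genes were called as higher and 1035 as lower, with 6 members as higher and 4 as lower.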

Other observations

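No member lies within 10 Mb of Rxra, Rxrb or Lyz2, the loci altered by breeding, and the nearest is Pfkfb3, 16.1 Mb from Rxra on chromosome 2. Of the other pathway genes, Slc2a6 (0.65 Mb), which rose, and Slc2a8 (5.21 Mb), which did not pass, lie within 10 Mb of Rxra. Among the WT libraries, replicate 3 held the lowest value in 20 of the 35 tested genes and replicate 2 the highest in 19. Among the RXRKO libraries, replicate 3 held the lowest value in 17 and the highest in 13.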
